A study of Mus musculus with 1528 samples.

Results

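Complement is a cascade of plasma proteins that marks microbes and dying cells for removal. C1q, assembled from the A, B and C chains encoded by *C1qa*, *C1qb* and *C1qc*, starts the classical pathway when it binds immune complexes or cell debris. C3 is the protein on which all pathways converge, factor B (*Cfb*) and properdin (*Cfp*) build and stabilise the alternative pathway convertase, and the receptors encoded by *C3ar1* and *C5ar1* read the anaphylatoxins C3a and C5a. Macrophages are a major source of C1q and properdin, and they carry both receptors.

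The 8 complement genes described here are *C1qa*, *C1qb*, *C1qc*, *C3*, *Cfb*, *Cfp*, *C3ar1* and *C5ar1*. They were chosen by name, with earlier results of these data known. Each symbol matched 1 of the 55421 genes of the table of counts. Macrophages (BMDMs) were grown with CSF1 from the marrow of 2 wild-type C57BL/6 mice. They received IL4+IL13 or IL4+IL13+TNF (10 ng/ml of each cytokine) for 24 h, and the second treatment is called TNF where the values are given. Single cells were sorted into 4 plates for Smart-seq2, which makes full-length cDNA without molecular identifiers, so that PCR copies were counted and intervals cover counting error only. Plates 2 and 3 held cells of mouse 1 and plates 4 and 5 cells of mouse 2, each plate with both treatments, so that mouse and culture cannot be told apart. The mouse was the replicate (n = 2 per treatment). After removal of poor wells, 1386 of 1524 wells were kept. Mouse 1 gave 357 IL4+IL13 cells and 347 TNF cells and mouse 2 gave 333 and 349, with a median of 472320 fragments per cell (range 200235 to 6122892). Levels are CPM, the counts of the summed cells scaled to an equal total.

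The cells carried macrophage markers. All 8 markers of the macrophage list were over 10 CPM on at least 1 plate, with *Adgre1* between 620 and 967 CPM and *Csf1r* between 834 and 1412 CPM. The summed level of that list was 14880 to 19350 CPM per plate with IL4+IL13 and 25910 to 28740 CPM with TNF, mainly through *Lyz2* (mean over plates 12500 CPM with IL4+IL13 and 23490 CPM with TNF). Of 33 markers of other cell types, *Kdr* was the one over 10 CPM on any plate and none was at 0 on every plate. The 3 endothelial markers summed to 11.5 to 24.7 CPM with IL4+IL13 and to 2.93 to 5.89 CPM with TNF, a shift of *Kdr* alone (mean over plates 15.4 and 4.38 CPM). The 7 neutrophil and precursor markers summed to 0.27 to 2.56 CPM with IL4+IL13 and to 1.39 to 7.96 CPM with TNF. Among them *S100a8* was found in 0.904% and 12.9% of cells with IL4+IL13 and in 5.94% and 30.7% with TNF (mouse 1 and mouse 2), and *S100a9* in 0.602% and 6.47% and in 2.97% and 16.99%. The part of these shifts in the results was not tested. Among these markers *Flt3* was found at 6.28 to 7.79 CPM on each plate and in 87.2% to 89.1% of cells of every mouse and treatment. Whether these fragments came from expressed *Flt3* was not tested. A share at 1 fragment can thus be high at a low level, and shares at 5 fragments are given as well.

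Of the promoters of these genes, 6 were in the RefSeq table (build GRCm38.p6), each from 250 bases before to 50 bases after the start given there. Counted gene models can begin elsewhere. Those of *C1qc* (at chr4:136893065) and *C5ar1* (at chr7:16259540) begin upstream of that start, inside the window. Those of *C3* (chr17:57228087-57228386), *C3ar1* (chr6:122856108-122856407) and *C1qb* (chr4:136886151-136886450), all on the minus strand, are printed because *C3* was higher with TNF, *C3ar1* lower and *C1qb* at a like level. They read 5′ to 3′ on the strand of the gene, with matches to the 6 motifs searched in capitals.
C3: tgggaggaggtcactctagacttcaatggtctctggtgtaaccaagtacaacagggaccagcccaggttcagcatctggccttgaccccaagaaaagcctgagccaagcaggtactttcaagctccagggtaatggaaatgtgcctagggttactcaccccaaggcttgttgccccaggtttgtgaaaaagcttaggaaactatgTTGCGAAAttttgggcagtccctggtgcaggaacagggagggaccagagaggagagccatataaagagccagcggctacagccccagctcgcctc
C3ar1: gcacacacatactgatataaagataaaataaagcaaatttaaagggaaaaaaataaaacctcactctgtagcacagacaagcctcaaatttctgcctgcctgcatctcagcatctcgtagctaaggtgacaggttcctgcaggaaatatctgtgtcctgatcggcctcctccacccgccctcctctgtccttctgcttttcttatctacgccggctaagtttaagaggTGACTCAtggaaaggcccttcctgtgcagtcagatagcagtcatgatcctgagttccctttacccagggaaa
C1qb: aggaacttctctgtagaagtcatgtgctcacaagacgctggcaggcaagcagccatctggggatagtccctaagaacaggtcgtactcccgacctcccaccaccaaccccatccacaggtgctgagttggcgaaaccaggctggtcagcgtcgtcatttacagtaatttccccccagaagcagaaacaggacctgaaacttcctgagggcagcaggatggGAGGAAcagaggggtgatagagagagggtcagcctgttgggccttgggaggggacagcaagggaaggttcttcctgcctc

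Both strands were searched for the κB consensus, the AP-1 motif TGANTCA, the C/EBP motif TTGCNNAA, the STAT motifs TTCNNNNGAA and TTCNNNGAA, and the PU.1 core GAGGAA. The *C3* window held 1 C/EBP match, TTGCGAAA, at -45 to -38 from the start. C/EBP matches were in 10.8% of all 32851 promoters of the table. The *C3ar1* window held 1 AP-1 match, TGACTCA, at -22 to -16, a motif found in 7.81% of promoters. The *C1qb* window held 1 PU.1 core at -30 to -25, found in 28.3% of promoters. The κB consensus (4.51% of promoters) matched in none of these 3 windows, and among the 6 it matched in that of *C1qc*. The STAT motifs (6.95% and 8.3% of promoters) matched in none of the 6. A match is a run of letters, not a measured binding site.

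Across the 4 plates, *C3* and *C1qa* were higher with TNF, *Cfp* was modestly higher, and *C3ar1* was lower, while *C1qb*, *C1qc* and *C5ar1* did not pass the threshold in any fit. *Cfb* could hardly be counted. In the edgeR quasi-likelihood test on the 4 sums (2 mice, 2 treatments), none of the 7 genes tested passed an adjusted p of 0.05, against 0.00587% (1 gene) of 17034 genes tested. At this size the test made few calls, and 4 of the 7 had an unadjusted p under 0.05, against 8.1% of all genes. The 2 treatments of a mouse share the animal and its plates, and a second fit took the mouse as a block. It called *C1qa*, *C3* and *Cfp* higher (1.94% of all genes) and *C3ar1* lower (1.88%). A ratio of over 1.5-fold on 4 of 4 plates, which is a description and not a test, was met by *C3* and *C1qa* upward (1.6% of all genes) and by *C3ar1* downward (2.42%). DESeq2 called *C3* and *C1qa* higher (1.98%) and *C3ar1* lower (1.9%). With spike-in totals as library sizes the median of all genes moved from 0.00 to 0.15 on the log2 scale. The standard errors of *C1qa*, *Cfp* and *C3ar1* were then larger. Their log2 fold changes were 1.57 (SE 0.60), 0.66 (SE 0.51) and -0.70 (SE 0.51). Of the 7 genes, only *C3* passed the threshold with this scaling.

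**Figure D1:**
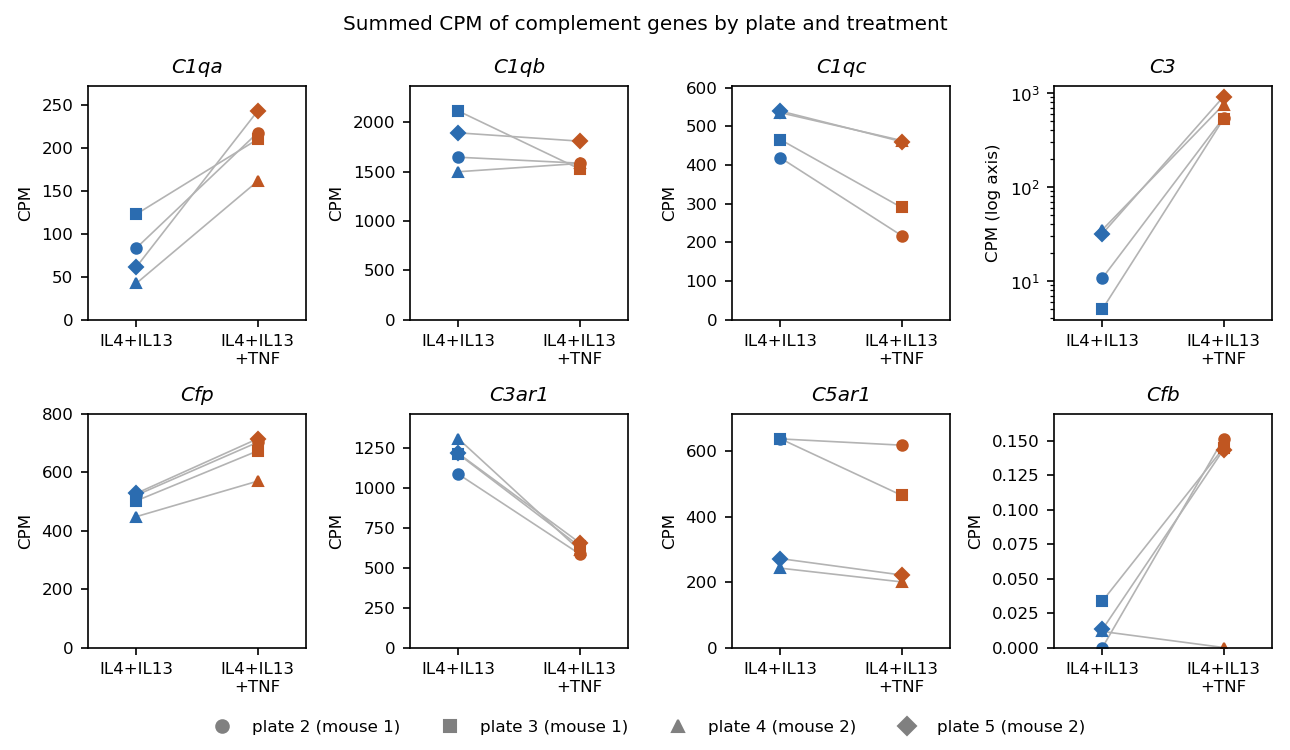
Summed CPM of the 8 complement genes on each plate (y axis; log axis for *C3*, other axes from 0) by treatment (x axis), with a line joining the 2 treatments of a plate. On every plate *C3*, *C1qa* and *Cfp* lie higher and *C3ar1* lower with TNF, and the *C5ar1* points group by mouse.

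*C3*, the central component, had the largest difference among the 8 genes. With IL4+IL13 it was at 10.8, 5, 35.1 and 31.9 CPM on plates 2, 3, 4 and 5. With IL4+IL13+TNF it was at 545, 530, 752 and 915 CPM on the same plates. The treatments did not overlap, and the lowest plate with TNF lay far above the highest without. The mean was 20.02 ± 17.4 CPM with IL4+IL13 and 708 ± 208 CPM with TNF (SD, n = 2 mice), a 35.4-fold difference, 72.7-fold in mouse 1 and 26.4-fold in mouse 2. The log2 fold change in edgeR was 5.14 (SE 0.80, adjusted p = 0.21), with the mouse block 5.44 (edgeR, adjusted p = 0.00798) and in DESeq2 5.13 (adjusted p = 2.77e-16). Mouse 2 had the higher level under both treatments. Without the IL4+IL13 sum of mouse 2 the log2 fold change was 6.52 (edgeR, adjusted p = 0.0371), and without that of mouse 1 it was 4.45 (edgeR, adjusted p = 0.134).

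Among single cells, *C3* was found in nearly every cell with TNF and in fewer cells without it. To compare cells at equal depth, each was thinned to 339000 fragments, which left 1250 cells. With IL4+IL13, 39.2% of 332 cells of mouse 1 (exact 95% interval 33.9 to 44.6) and 60.2% of 309 cells of mouse 2 (54.5 to 65.7) had a *C3* fragment. With IL4+IL13+TNF the shares were 98.3% of 303 cells and 98.04% of 306 cells. At 5 or more fragments the contrast widened, from 6.93% and 18.8% of cells to 94.4% and 93.8%. The level still varied widely among the TNF cells, from 50.7 and 81.1 CPM at the 10th percentile to 1064 and 1788 CPM at the 90th in mouse 1 and mouse 2. The mean difference in the share with a fragment was 48.5 percentage points, and with 2 mice per treatment the exact two-sided permutation test cannot go below p = 0.333, which it gave.

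The *C3* that was counted with IL4+IL13 came from few cells. In the top 5% of cells by *C3* lay 78.5% of its summed CPM in mouse 1 and 59.3% in mouse 2. With TNF the top 5% held 18.7% and 17.9%. Without TNF the median cell was at 0 CPM in mouse 1 and at 2.56 CPM in mouse 2. The median TNF cell was at 417 CPM in mouse 1 and at 696 CPM in mouse 2. The highest *C3* cells without TNF, at 498 CPM in mouse 1 and 800 CPM in mouse 2, were above the median of the cells with TNF of the same mouse. Wells of both treatments shared the columns of a plate, and the rank correlation of *C3* in IL4+IL13 cells with the summed *C3* of the TNF wells in their column was 0.01, 0.11, 0.12 and 0.22 on plates 2, 3, 4 and 5 (147 to 166 cells each), and its part in the low *C3* counts was not tested.

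**Figure D2:**
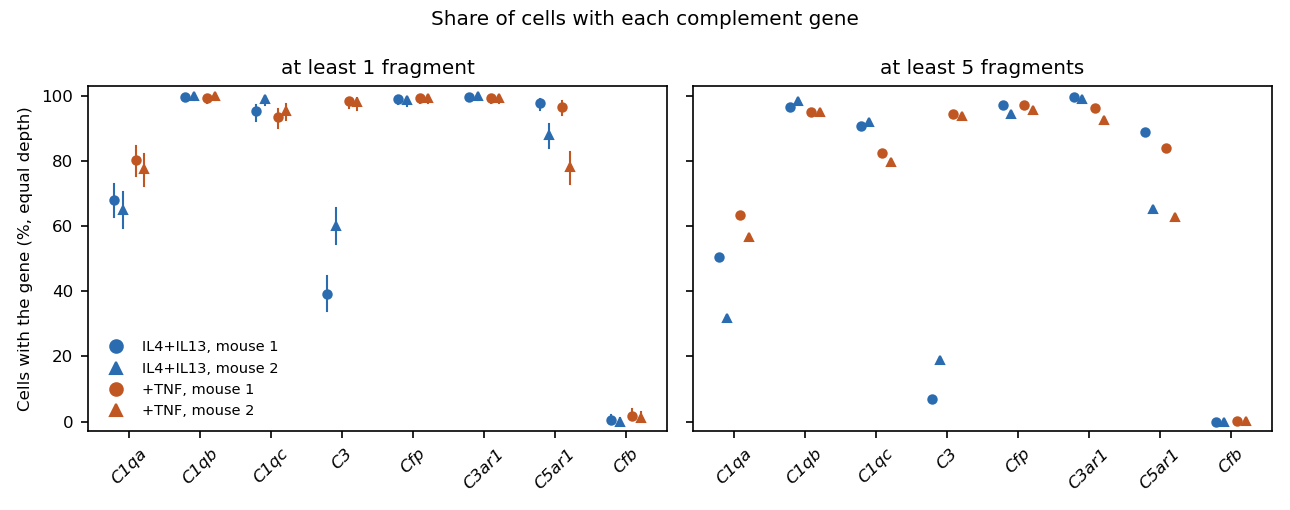
Percent of cells (y axis), thinned to equal depth, with at least 1 fragment (left, bars are exact 95% intervals) or at least 5 fragments (right) of each gene, by treatment and mouse. *C3* goes from a minority of cells at 5 fragments to over 93% with TNF, *C1qa* shifts upward in both mice, and *Cfb* stays near 0.

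The 3 genes of C1q lie side by side on the minus strand of chromosome 4 (mm10): *C1qb* at chr4:136880129-136886187, *C1qc* at chr4:136889804-136893065 and *C1qa* at chr4:136895917-136898803. No exon base of the 3 is shared with another gene of the annotation. They did not move together. *C1qa* was at 83.7, 123, 42.5 and 61.6 CPM with IL4+IL13 and at 218, 210, 161 and 243 CPM with TNF on plates 2, 3, 4 and 5. The treatments did not overlap for *C1qa*.

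*C1qb* was at 1647, 2115, 1500 and 1894 CPM with IL4+IL13 and at 1587, 1528, 1584 and 1810 CPM with TNF on those plates. *C1qc* was at 418, 465, 535 and 539 CPM with IL4+IL13 and at 218, 290, 463 and 460 CPM with TNF. *C1qb* overlapped between treatments, and *C1qc* was lower with TNF on each plate but by little on the plates of mouse 2, where the log2 ratio was -0.21 and -0.23 against -0.94 and -0.68 in mouse 1.

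In edgeR the log2 fold change of *C1qa* was 1.51 (SE 0.37, adjusted p = 0.363; with the mouse block 1.603, adjusted p = 0.0313), a 2.86-fold difference of the means (75.4 ± 36.6 and 215 ± 11.1 CPM, SD, n = 2). It was 2.11 without the IL4+IL13 sum of mouse 1 and 1.09 without that of mouse 2. The log2 fold change of *C1qb* was -0.04 (SE 0.14, adjusted p = 0.982 in edgeR), and its sign turned with spike-in totals and without the IL4+IL13 or the TNF sum of mouse 1. That of *C1qc* was -0.35 (SE 0.30, adjusted p = 0.873; with the mouse block -0.41, adjusted p = 0.211).

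The ratio of *C1qa* to *C1qb* does not depend on the scaling of the libraries. It was 0.0508, 0.0582, 0.0283 and 0.0325 with IL4+IL13 and 0.137, 0.138, 0.102 and 0.134 with TNF on plates 2, 3, 4 and 5, with no overlap. Per mouse it was 3.12-fold higher with TNF (geometric mean), and the exact permutation test gave p = 0.333, the smallest that 2 mice per treatment allow. The ratio of *C1qa* to *C1qc* was 0.2, 0.265, 0.0795 and 0.114 with IL4+IL13 and 1.0, 0.725, 0.348 and 0.528 with TNF, also without overlap (exact p = 0.333). That of *C1qc* to *C1qb* was lower with TNF on each of the 4 plates, by less than the plates differed from each other, so that the treatments overlapped (exact p = 0.667).

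Per kilobase of exon, the scale on which genes can be compared, the 3 chains were far apart. With IL4+IL13 *C1qb* stood at 1592 ± 143 CPM per kb, *C1qc* at 246 ± 30.7 and *C1qa* at 72.5 ± 35.1 (SD, n = 2). With IL4+IL13+TNF *C1qb* stood at 1547 ± 74.7 CPM per kb, and *C1qa* (207 ± 10.7) and *C1qc* (192 ± 74.7) did not differ beyond their spread. At equal depth *C1qb* was found in 99.3% to 100% of cells of each mouse and treatment and *C1qc* in 93.4% to 99.0%. *C1qa* was found in 68.1% and 65.0% of cells with IL4+IL13 and in 80.2% and 77.5% with TNF, for mouse 1 and mouse 2 (difference 12.3 percentage points, exact permutation p = 0.333). At 5 fragments *C1qb* was in 95.05% to 98.4% of cells. *C1qc* was then in 90.7% and 91.9% of cells with IL4+IL13 and in 82.5% and 79.7% with TNF. For *C1qa* the shares at 5 fragments were 50.6% and 31.7% with IL4+IL13 and 63.4% and 56.5% with TNF.

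Cells with *C1qb* and *C1qc* but no *C1qa* fragment made up 27.7% and 34.3% of cells with IL4+IL13 and 16.5% and 19.6% with TNF. All 3 chains were found together in 67.2% and 64.7% of cells without TNF and in 76.6% and 75.8% with it. Only 1 cell of the 1250, a TNF cell of mouse 1, had no fragment of any C1q gene.

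Although the sum of the 3 C1q genes had a similar mean over cells in both treatments (2341 and 2321 CPM with IL4+IL13, 2092 and 2301 CPM with TNF), it was spread more widely over the cells with TNF. At equal depth the cell at the 10th percentile had 292 and 250 CPM of summed C1q with IL4+IL13, and 90.3 and 44.3 CPM with TNF. The cell at the 90th percentile had 4615 and 4623 CPM with IL4+IL13, and 4823 and 5466 CPM with TNF. The median cell had 2032 and 2018 CPM with IL4+IL13, and 1475 and 1591 CPM with TNF. Within plates the median was lower with TNF on each, by little on plate 5 (1794 and 1758 CPM). The low end and the median thus lay lower in both mice, and the high end did not.

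The SD over cells of log2(CPM + 1) of summed C1q was 1.99 and 1.91 with IL4+IL13 and 2.30 and 2.57 with TNF, a mean difference of 0.49 (exact permutation p = 0.333). It was larger with TNF within each plate: 2.19 and 2.50 on plate 2, 1.74 and 2.14 on plate 3, 1.97 and 2.71 on plate 4, and 1.84 and 2.44 on plate 5. Over the 1396 genes with a mean of at least 100 CPM in every mouse and treatment, the SD was on the whole smaller with TNF (median change -0.21), and 17.7% of genes had a larger one. The change for summed C1q was larger than that of 99.0% of those genes, and *C1qb* alone, whose mean was alike in both treatments, behaved like the sum (change 0.51).

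**Figure D3:**
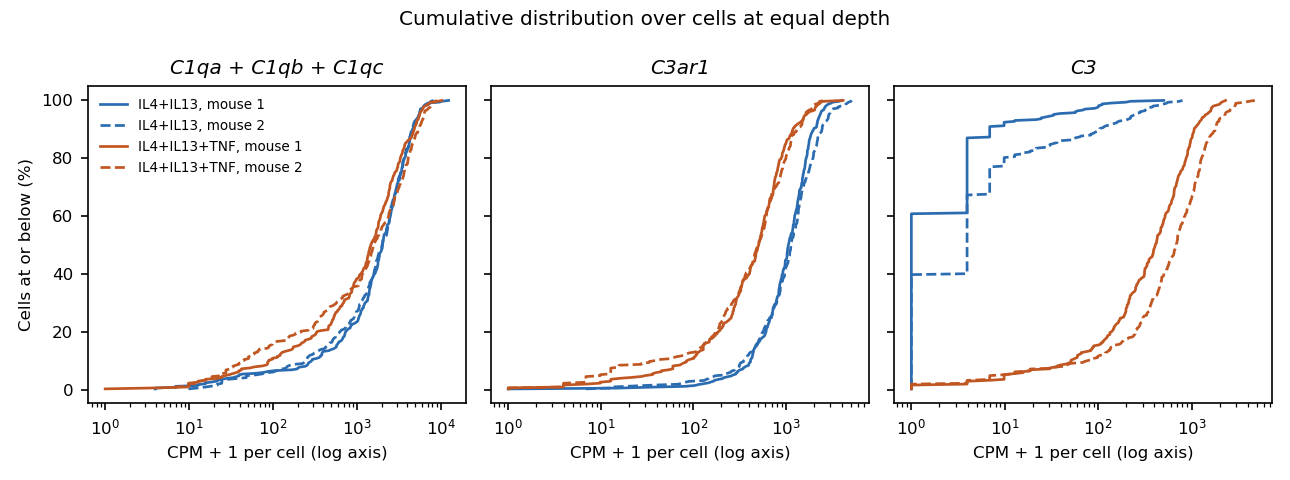
Cumulative percent of cells (y axis) against CPM + 1 per cell at equal depth (x axis, log) for summed C1q, *C3ar1* and *C3*, by treatment (colour) and mouse (line). With TNF the C1q curves leave those of IL4+IL13 at the low end and meet them at the high end, the *C3ar1* curves shift left with a longer low tail, and the *C3* curves shift far to the right.

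*C3ar1*, the receptor for C3a, was lower with TNF while the gene of the precursor of its ligand was higher. It was at 1087, 1213, 1309 and 1217 CPM with IL4+IL13 and at 587, 634, 611 and 657 CPM with TNF on plates 2, 3, 4 and 5. The treatments did not overlap, and within a treatment the plates differed little. The means were 1173 ± 64.9 and 645 ± 6.45 CPM (SD, n = 2), 1.82-fold lower with TNF. The log2 fold change in edgeR was -0.86 (SE 0.14, adjusted p = 0.21) and with the mouse block -0.86 (edgeR, adjusted p = 0.0135). It lay between -0.92 and -0.80 when each of the 4 sums was left out, and was -0.70 (SE 0.51) with spike-in totals.

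Nearly every cell kept *C3ar1*: 99.7% and 100% had a fragment with IL4+IL13 and 99.3% in each mouse with TNF. At 5 fragments the shares were 99.7% and 99.0% without TNF and 96.4% and 92.5% with it. The cell at the 10th percentile had 413 and 355 CPM with IL4+IL13 and 86.7 and 39.8 CPM with TNF. The 90th percentile went from 1990 and 2449 CPM to 1189 and 1317 CPM. The SD over cells of log2(CPM + 1) was 1.16 and 1.33 without TNF and 1.81 and 2.11 with it (difference 0.72, exact permutation p = 0.333), larger with TNF on each of the 4 plates, and larger as a change than that of 99.6% of the 1396 genes. Those genes were not chosen for a like drop in level. The part of the lower *C3ar1* level in its wider spread was not tested.

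*C5ar1*, the receptor for C5a, differed more between the mice than between the treatments. It was at 638 and 638 CPM in mouse 1 and at 243 and 272 CPM in mouse 2 with IL4+IL13. With IL4+IL13+TNF it was at 619 and 466 CPM in mouse 1 and at 201 and 222 CPM in mouse 2. Both plates of mouse 1 lay above both plates of mouse 2 under either treatment, by 2.48-fold with IL4+IL13 and 2.57-fold with TNF. With 1 mouse on each side there is no replicate check of this difference. Within each plate *C5ar1* was lower with TNF, by a log2 ratio of -0.04, -0.46, -0.27 and -0.29 on plates 2, 3, 4 and 5, and the TNF level was 0.893 of that without TNF in mouse 1 and 0.878 in mouse 2.

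The log2 fold change of *C5ar1* with TNF was -0.17 (SE 0.61, adjusted p = 0.984 in edgeR; with the mouse block -0.18, SE 0.09, adjusted p = 0.339). It turned to 0.65 without the IL4+IL13 sum of mouse 1 and to 0.36 without the TNF sum of mouse 2, fits without the block in which the 2 mice are unevenly split between treatments. At equal depth 97.9% and 88.0% of cells had a fragment with IL4+IL13 and 96.7% and 78.1% with TNF, in mouse 1 and mouse 2.

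*Cfp*, which encodes properdin, was at 522, 503, 448 and 528 CPM with IL4+IL13 and at 703, 673, 570 and 715 CPM with TNF on plates 2, 3, 4 and 5. Each plate with TNF lay above each plate without, by a nearly even step. The means were 485 ± 24.05 and 688 ± 41.6 CPM (SD, n = 2), 1.42-fold higher with TNF. The log2 fold change was 0.51 (SE 0.14, adjusted p = 0.453 in edgeR; with the mouse block 0.51, adjusted p = 0.0454; in DESeq2 0.50, adjusted p = 0.34). *Cfp* was found in 98.7% to 99.3% of cells in every mouse and treatment.

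*Cfb*, which encodes factor B, was at the limit of what the table can show. Over all 1386 cells it had 42 fragments in 13 cells. Without TNF, mouse 1 held 3 of these and mouse 2 held 2, and the TNF cells held 24 (mouse 1) and 13 (mouse 2). It did not pass the filter on low counts and was not tested. Its gene model (chr17:34856374-34862518, minus strand, mm10) shares 79.5% of its 2825 exon bases with the model *Gm20547* (chr17:34856412-34882042), which reaches over *Cfb* and the neighbouring *C2*, and the longest run of exon bases of its own is 467. Fragments that overlap 2 genes were not assigned to either by the setting shown in the header of the table, and *Gm20547* had 0 fragments in all cells. The counts therefore give no level of *Cfb* in these macrophages, and no correlation with it was computed. None of the other 7 genes shares exon bases with another model.

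Ordered by mean level per kilobase with IL4+IL13, the 7 genes ran from *C1qb* (1592 CPM per kb) through *Cfp* (279 ± 13.9), *C3ar1* (272 ± 15.1), *C1qc* (246 ± 30.7), *C5ar1* (170 ± 104) and *C1qa* (72.5 ± 35.1) to *C3* (3.89 ± 3.38). *Cfp*, *C3ar1* and *C1qc* did not differ beyond their spread in that order, nor did *C5ar1* from its neighbours. With TNF the order was *C1qb*, *Cfp* (397 ± 23.95), *C1qa*, *C1qc*, *C5ar1* (151 ± 94.1), *C3ar1* (150 ± 1.5) and *C3* (138 ± 40.4), and the last 5 lay within the spread of a neighbour.

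Across cells, the 3 C1q genes varied together. The Spearman correlation of *C1qb* with *C1qc* at equal depth was 0.77 and 0.74 with IL4+IL13 and 0.82 and 0.85 with TNF, for mouse 1 and mouse 2. That of *C1qa* with *C1qb* was 0.56 and 0.42 without TNF and 0.72 in each mouse with it. For comparison, the median size of the correlation of summed C1q with the genes found in at least 25% of cells was between 0.046 and 0.057 in every mouse and treatment. These and the following correlations are over 303 to 332 cells that share libraries and culture, and they are given as descriptions.

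Summed C1q and *C3*, the start and the centre of the cascade, had a correlation of -0.06 across the IL4+IL13 cells of each mouse and of 0.23 and 0.32 across the TNF cells. *C3* was at 0 in many IL4+IL13 cells, which limits what a rank correlation can show there. Summed C1q and *C3ar1* were at 0.24 and 0.19 without TNF and at 0.35 and 0.51 with it. *C3ar1* and *C5ar1* were at 0.18 and 0.27 without TNF and at 0.44 and 0.37 with it. In 24 of the 25 pairs computed, which share genes and cells, both TNF values lay above both values without TNF. The exception was *C3* with *C3ar1*. The share of pairs of other genes with this order was not computed, so the count has no background beside it. The median size of the correlation with the genes found in at least 25% of cells stayed small. For summed C1q it was 0.051 and 0.046 without TNF and 0.050 and 0.057 with it. Both TNF values lay above both values without TNF for *C3* (0.045 and 0.046 over 0.040 and 0.042). The same held for *Cfp* (0.059 and 0.052 over 0.050 and 0.043) and *C5ar1* (0.049 and 0.053 over 0.047 and 0.042). It did not hold for *C3ar1* (0.053 and 0.057, against 0.053 and 0.049).

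**Figure D4:**
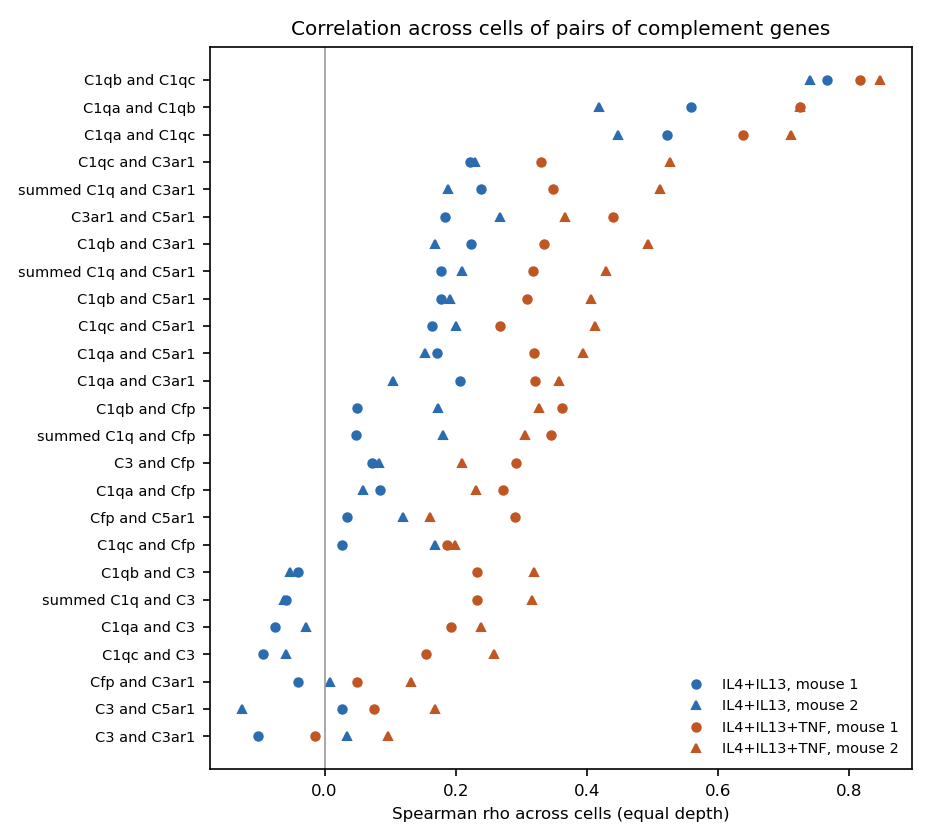
Spearman correlation across cells at equal depth (x axis) for 25 pairs of complement genes (y axis), by treatment (colour) and mouse (symbol). The pairs within C1q lie at the top, and in all pairs but *C3* with *C3ar1* both TNF points lie to the right of both IL4+IL13 points. Pairs of other genes were not computed.

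The genes outside the 8 that tracked summed C1q most closely over the 4 sets of cells were *Mrc1* (mean rho 0.47), *Igf1* (0.44), *Rnase4* (0.43), *Selenop* (0.40) and *Gas6* (0.40), among 10105 genes. *Mrc1* encodes the mannose receptor CD206, and *Gas6* a ligand that bridges dying cells to macrophages. *C3ar1* was tracked by *Adgre1* (0.37), which encodes F4/80, and by *Itm2b* (0.34), *Mrc1* (0.34) and *Rnase4* (0.33). *C5ar1* was tracked by the scavenger receptor gene *Stab1* (0.37), *Dab2* (0.33), *Maf* (0.32), *Adgre1* (0.32) and *Igfbp4* (0.30).

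*Cfp* had another set of neighbours: *Ly6e* (0.34), the lectin genes *Mgl2* (0.33) and *Clec10a* (0.32), *Alox5ap* (0.29) and *Pld4* (0.28). Those of *C3* were weak, with *Ly6e* (0.21), *Cep85* (0.19), *Tmem176b* (0.18), *Ms4a6c* (0.18) and *Slc2a6* (0.17), and came mainly from the TNF cells (*Ly6e* 0.06 and 0.05 without TNF, 0.29 and 0.42 with it).

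Of 43 other genes of the complement system, 16 passed the filter on low counts, and 12 reached 10 CPM on a plate. This list too was drawn up with earlier results of these data known. edgeR without the block called 0 of the 16 (0.00587% of all genes), and 9 had an unadjusted p under 0.05, against 8.1% of all genes. With the block it called *Itgax*, *C1rb* and *Clu* higher and *Fcna* and *Cd93* lower, against 3.82% of all genes. DESeq2 called the same genes except *Clu*, against 3.89% of all genes. The median log2 fold change of the 16 was -0.06, beside 0.00 over all genes. The rule of 1.5-fold on 4 of 4 plates held for *Itgax* and *C1ra* upward (1.6% of all genes) and for *Fcna* and *Cd93* downward (2.42%). Of the 14 genes of the classical and lectin pathways 3 were tested, of the 7 of the terminal pathway 1, of the 12 regulators 5 and of the 9 receptors 7. *Cfd*, the alternative pathway protease factor D, was at 0 to 0.0337 CPM and was not tested.

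*Itgax* encodes the alpha chain of complement receptor 4. It was at 11.6, 5.6, 19.2 and 29.2 CPM with IL4+IL13 and at 85.2, 88.0, 118 and 105 CPM with TNF on plates 2, 3, 4 and 5, with no overlap. Its log2 fold change was 2.70 (SE 0.52, adjusted p = 0.271 in edgeR; with the mouse block 2.86, adjusted p = 0.0145), 3.60 without the IL4+IL13 sum of mouse 2 and 2.15 without that of mouse 1. *Itgam*, the alpha chain of complement receptor 3, was at -0.23 (adjusted p = 0.931), and 68.7% of its exon bases are shared with the model *Gm49368*. *Itgb2*, the beta chain of both, was at 0.57 (adjusted p = 0.494; with the block 0.0828).

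*Cd93*, once described as a C1q receptor, was at 206 to 230 CPM with IL4+IL13 and at 87.7 to 102.6 CPM with TNF over the 4 plates, with no overlap. Its log2 fold change was -1.11 (SE 0.16, adjusted p = 0.198 in edgeR; with the mouse block -1.11, adjusted p = 0.0135). *Fcna*, which encodes ficolin A of the lectin pathway, was at 19.5 to 23.7 CPM and at 6.58 to 9.71 CPM (log2 fold change -1.35, SE 0.26, adjusted p = 0.277; with the block -1.36, adjusted p = 0.0347). *C1ra*, a protease of the C1 complex, was at 2.06 to 7.75 CPM and at 6.96 to 13.01 CPM, which overlapped between plates, and its close copy *C1rb* makes its counts uncertain (log2 fold change 1.32, adjusted p = 0.546; with the block 1.41, adjusted p = 0.0609).

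**Figure D5:**
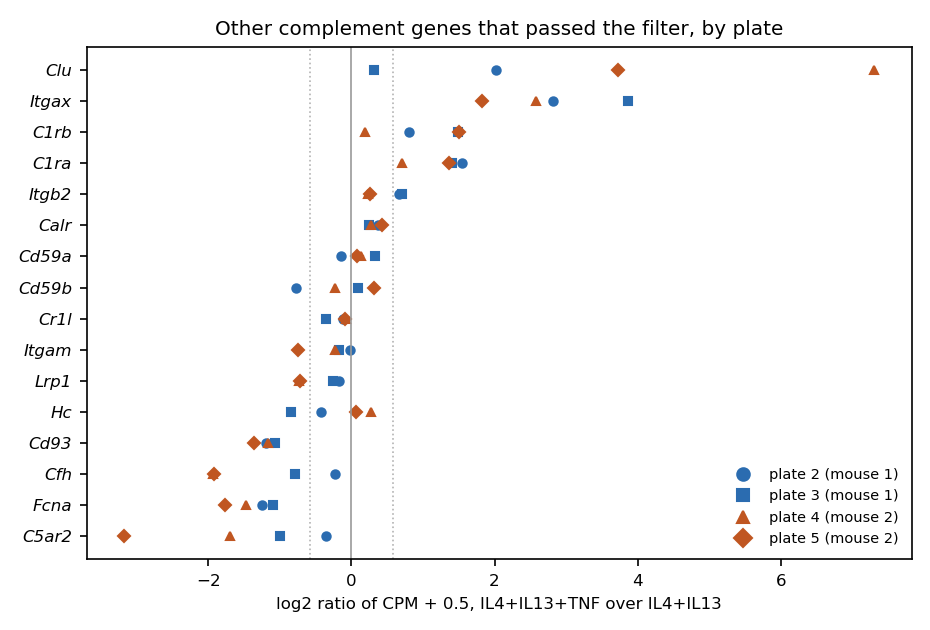
Log2 ratio of CPM + 0.5 between treatments on each plate (x axis) for the 16 other complement genes that passed the filter on low counts (y axis), with dotted lines at 1.5-fold. The 4 points of *Itgax* and *C1ra* lie to the right of the right line and those of *Cd93* and *Fcna* to the left of the left line, and the *Clu* points are far apart.

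*Clu*, which encodes clusterin, a fluid-phase regulator of the terminal pathway, was called higher with the block (edgeR, adjusted p = 0.00555) and was uneven over the plates. It was at 0.0112, 0.0112, 0.465 and 0.21 CPM with IL4+IL13 and at 1.57, 0.134, 153 and 8.87 CPM with TNF on plates 2, 3, 4 and 5, higher with TNF on each. *C1rb* was at 0.157 to 0.279 CPM and at 0.392 to 1.403 CPM. *Clu*, *C1rb*, *Itgam*, *Itgb2* and *Cfd* fell outside the rule for named genes and were chosen after their values were seen.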

How the data were processed

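Fragments were counted in 1524 wells of known mouse and treatment. According to the methods and the file headers, the authors aligned fragments to mm10 with gsnap and assigned uniquely mapped ones to Ensembl 98 genes with featureCounts 1.6.3, without strand and without fragments that overlap 2 genes. The deposited values are raw counts per gene and well, with gene length beside them and with 92 spike-in rows, which were kept out of totals. 8 columns that match no sample were not used, and 4 samples were unassigned.

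Wells beyond 3 median absolute deviations of their plate in total, detected genes, mitochondrial or spike-in share were left out. The labels and methods name no doublet treatment, and no caller was run on the singly sorted cells. The 4 sums of counts, by mouse and treatment, entered edgeR 4.0.16 (glmQLFit, glmQLFTest, TMM, treatment only, Benjamini-Hochberg over 17034 genes found in 5% or more of either treatment's cells and passing filterByExpr, threshold 0.05) in R 4.3.3. Mouse numbers pair the samples, since both treatments came from the same animal and its plates, and deviations of same-numbered sums correlated with r = 0.581, so values with the mouse as a replicate block are given where they change a call. DESeq2 1.42.0, limma 3.58.1, other scalings, filters and left-out sums were alternatives. The tests were tested on simulated data with 200 genes changed.

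Shares, spread and correlations used cells thinned once to 339000 fragments, the 10th percentile of the totals, which left out 25 and 24 IL4+IL13 cells and 44 and 43 IL4+IL13+TNF cells. Intervals are exact Clopper-Pearson. The genes, lists and rules were chosen with earlier results of these data known. The text names the 8 genes, other complement genes past the edgeR threshold without the block or past 1.5-fold (CPM + 0.5) on 4 of 4 plates, and the 5 genes with the highest mean Spearman correlation with each of the 8 genes, *Cfb* left out and C1q summed. For *C3ar1*, 1 of these genes is not reported here. The comparison of spread was added after seeing the data. Gene positions are those of the table, and symbols matched 55154 of 55421 genes. Python 3.11.15, scipy 1.17.1 and matplotlib 3.10.9 were used.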

Additional observations from a re-analysis of the deposited data

Results flagged for a closer look

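Of 32 groups of 4 plates (8 genes, 2 treatments, CPM and percent of cells), 5 had 1 plate far from the other 3. The limit used marks about 1 group in 20 for independent normal values. That rate does not hold where the other 3 plates tie at 100 or 0 percent, and CPM and percent of a gene are not independent. The percent of cells with *C1qb* and with *C3ar1* was 99.4 on plate 2 with IL4+IL13 and 100 on the other plates, a difference of 1 cell of 166 each. The percent of cells with *Cfb* was 1.21 on plate 3 with IL4+IL13 and 0 on the others. With IL4+IL13+TNF, *Cfb* was at 0 CPM and in 0 percent of cells on plate 4, against 0.144 to 0.151 CPM and 1.56 to 1.86 percent on the others, all near the limit of detection.

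The 3 unassigned samples with a column, whose titles name IL4+IL13 but no mouse, are single wells, and some of their levels lay above every IL4+IL13 plate. *C3* was at 246.9, 208.5 and 699.6 CPM in the samples numbered 3, 4 and 5, against at most 35.1 CPM on an IL4+IL13 plate. *C1qa* was at 175 CPM in the sample numbered 4 and 310 CPM in that numbered 5, against at most 123 CPM. *C1qc* was at 1093 CPM in the sample numbered 4, against at most 539 CPM. A plate sum covers many cells, and each of these samples is 1 well. The highest levels in assigned IL4+IL13 cells were 800 CPM of *C3*, 1609 CPM of *C1qa* and 2522 CPM of *C1qc*. The unassigned samples numbered 3, 4 and 5 had 10802, 11121 and 8314 genes found at 279461, 354874 and 87198 fragments. Kept cells had a median of 7851 genes and 472320 fragments. Whether these samples held 1 cell each, and the reason for their levels, was not tested. Other genes lay below every IL4+IL13 plate in these samples, with *C1qb* at 447, 769 and 688 CPM (lowest plate 1500 CPM), *Cfp* at 233, 220 and 344 CPM (448 CPM) and *C3ar1* at 658, 710 and 138 CPM (1087 CPM), and *C1qa* in the sample numbered 3 (121.7 CPM) was not above the highest plate.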

How the results depend on the processing

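The fit with the mouse as a replicate block, which pairs the treatments within an animal, moved *C1qa* (log2 fold change 1.603), *C3* (5.44), *Cfp* (0.51) and *C3ar1* (-0.86) past the threshold, DESeq2 moved *C1qa* (1.51), *C3* (5.13) and *C3ar1* (-0.87), and spike-in totals moved *C3* (5.46, adjusted p = 0.0489). The block changed no call of the other 3 genes tested. Over all genes the calls went from 1 to 651 with the block, 598 in DESeq2 and 12 with spike-in totals, and among the other complement genes from 0 to 5 with the block and 4 in DESeq2; the cause was not tested. *C1qb* turned to 0.0811 with spike-in totals. Leaving out each sum in turn gave 1.09 to 2.11 for *C1qa*, -0.13 to 0.05 for *C1qb* (0.0473 without the IL4+IL13 sum and 0.00653 without the TNF sum of mouse 1), -0.82 to -0.00 for *C1qc*, 4.45 to 6.52 for *C3*, 0.44 to 0.57 for *Cfp*, -0.92 to -0.80 for *C3ar1* and -1.01 to 0.65 for *C5ar1* (0.36 without the TNF sum of mouse 2), with 4 to 30 genes called over all genes and 0 to 1 among the other complement genes. A lone sum was then assumed to vary like the other treatment.

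At 5 fragments in place of 1, the difference in percent of cells was 18.8 for *C1qa*, -2.46 for *C1qb*, -10.2 for *C1qc*, 81.2 for *C3*, 0.328 for *Cfb* and -4.94 for *C3ar1*. For *Cfp* it was -0.15 without thinning, -0.212 with the fixed cell filter and -0.372 without a cell filter, against 0.442. For *C3ar1* it was -0.971 with the fixed cell filter and -1.29 without one, against -0.506. The correlation of summed C1q with *C3* (mean 0.107 over the 4 sets) lay between 0.087 and 0.154, and the change in spread between 0.312 and 0.667 for summed C1q and between 0.65 and 0.782 for *C3ar1*, under the alternatives tried. Correlations with *Cfb* were not run. With 2 mice no exact test can go below p = 0.333.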
